A study of Mus musculus with 12 samples.

Results

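The G1 phase of the cell cycle was followed through 10 genes that decide whether a cell starts DNA replication, measured in 2 mouse natural killer (NK) cell lines. They are the D cyclins Ccnd1, Ccnd2 and Ccnd3, the E cyclins Ccne1 and Ccne2, the kinases Cdk4 and Cdk6, and the inhibitors Cdkn1b, Cdkn2a and Cdkn2c. Each gene was taken from the probe sets that the platform annotation pairs with a single symbol, and the brightest probe set over the 12 arrays stood for the gene. All 10 were measured, out of 19938 genes in all. The values are log2 expression levels as deposited, so a difference of 1 is a doubling of signal.

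The lines are KY-2 and KY-1, NK cells of the genotype p53KO, grown in cRPMI with 200 U/mL human IL-15, the cytokine that keeps NK cells dividing. They carried a vector for FLAG-tagged Myb joined to green fluorescent protein (GFP) by a P2A peptide, or a vector for GFP alone, and RNA was taken from cells sorted for GFP. There were 3 arrays of KY-2 with the Myb vector, 2 of KY-2 with the GFP vector, 4 of KY-1 with the Myb vector and 3 of KY-1 with the GFP vector. All groups lack p53 by their labels, so p53-replete cells were not part of the comparison. Each line is a single line, and a difference between KY-2 and KY-1 is a difference between those lines only. Nothing in the labels says that arrays came from separate cultures, so the p-values rest on a spread that may be technical.

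In G1, mitogens and cytokines raise the D cyclins, which bind and activate Cdk4 and Cdk6. These kinases begin to phosphorylate the retinoblastoma protein, which releases E2F factors, and E2F then drives Ccne1 and Ccne2, whose products activate Cdk2 and complete the step. INK4 proteins such as those of Cdkn2a and Cdkn2c bind Cdk4 and Cdk6 and keep the D cyclins off, whereas p27, the product of Cdkn1b, holds Cdk2 complexes in check. Lymphocytes use mainly cyclins D2 and D3, and the Myb protein is a transcription factor of immature and dividing blood cells. Ccnd1, Ccnd2, Ccnd3, Ccne1, Cdk4 and Cdk6 are among the reported targets of the microRNAs miR-15 and miR-16, and Myb itself is another.

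The mature sequences of these microRNAs are shown because their shared seed is what links the cyclins and kinases above into a target group. They run 5′ to 3′ and come from RefSeq, build GRCm38.p6. Capitals mark the seed, bases 2 to 8.
mmu-miR-15a-5p: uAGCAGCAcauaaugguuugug
mmu-miR-15b-5p: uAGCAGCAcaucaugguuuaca
mmu-miR-16-5p: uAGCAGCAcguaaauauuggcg
All 3 carry the seed AGCAGCA, which 10 mature mouse microRNA names in the RefSeq table share. The first lies at chr14:61632075-61632096 on the minus strand and the second at chr3:69009775-69009796 on the plus strand. The mature miR-16 is made from 2 loci, chr14:61631936-61631957 on the minus strand and chr3:69009918-69009939 on the plus strand. Target sites in the 10 genes were not analysed here.

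Array medians lay between 5.31 and 5.42. Within KY-1, the Myb arrays 3 and 4 and likewise the GFP arrays 1 and 2 differed by less than the spread of the other pairs within a group (robust SD 0.0433 to 0.0469, against 0.102 to 0.172), and each pair was averaged and counted as 1 sample. This left 10 replicates, 3 for each Myb group and 2 for each GFP group. Of the 12 NK cell markers measured, 11 or 12 lay above the highest array median in each group. Ncr1, the NK receptor NKp46, averaged 5.34 in KY-2 Myb and 5.43 in KY-2 GFP samples, against 7.76 in KY-1 Myb and 9.72 in KY-1 GFP samples. Eomes, an NK transcription factor, went the other way, with 7.37 in KY-2 Myb and 7.30 in KY-2 GFP samples, against 4.71 in KY-1 Myb and 4.86 in KY-1 GFP samples. Prf1, for perforin, averaged 9.61 in KY-2 Myb and 10.43 in KY-2 GFP samples, against 8.36 in KY-1 Myb and 8.17 in KY-1 GFP samples. All B cell and myeloid markers averaged below the highest array median in every group, and 2 or 3 of 6 fibroblast markers averaged above it. The mean of the 9 T cell markers was 7.14 to 7.25 on KY-2 Myb arrays and 7.19 to 7.28 on KY-2 GFP arrays, against 5.25 to 5.35 on KY-1 Myb arrays and 5.08 to 5.15 on KY-1 GFP arrays. Cd3g, Cd8a and Cd28 averaged 9.46 or more in KY-2, whereas Cd4 and Cd5 averaged below the array medians in all groups. The part of these markers in the line differences below was not tested.

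Myb was read first as a check on the vectors. Its level was 9.80, 9.67 and 9.75 on the KY-2 Myb arrays, against 5.002 and 5.10 on the KY-2 GFP arrays. The KY-1 Myb arrays gave 9.59, 9.57, 9.55 and 9.54, against 7.96, 7.92 and 8.04 on the KY-1 GFP arrays. No Myb array overlapped a GFP array of its line, so the labels held. By limma, the Myb vector added 4.69 ± 0.08 (SE) on the log2 scale in KY-2, with adjusted p = 1.06e-10, and 1.58 ± 0.08 in KY-1, with adjusted p = 3.89e-06. Without the Myb vector, Myb averaged 5.05 in KY-2 and 7.99 in KY-1, a difference of −2.94 (adjusted p = 1.56e-09). The KY-2 GFP arrays lay below every array median, so that level is not shown to be above background and the sizes that rest on it are uncertain. With it, Myb differed by 0.17 between KY-2 and KY-1, with adjusted p = 0.094.

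Like all genes tested, the 10 G1 genes were called far more often between the lines than between the vectors. Between Myb and GFP cells, 2.83% of all genes were called in KY-2 and 1.22% in KY-1. Of the 10, 5 were higher in KY-2 than in KY-1 with the Myb vector, 4 were lower and 1 was not called, where 31.6% of all genes tested were called, 14.7% higher and 16.9% lower. With the GFP vector, on separate arrays, 5 were higher, 3 were lower and 2 were not called, where 28.9% of all genes were called, 13.6% higher and 15.2% lower. Among genes with a mean level above 6, to which all 10 belong, the shares called were 53.1% with the Myb vector and 47.5% with the GFP vector. Ccnd1 belongs there only through KY-2, as it averaged 5.27 in KY-1 Myb and 5.17 in KY-1 GFP cells. That mean is taken over both lines, so the filter is not independent of the line difference. The median difference of the 10 genes was 0.19 with the Myb vector and 0.15 with the GFP vector, and over all genes −0.01 with the Myb vector and −0.04 with the GFP vector. By size alone, the median was 0.36 for the 10 genes and 0.16 over all genes with the Myb vector, and 0.48 for the 10 genes and 0.19 over all genes with the GFP vector. The arrays of the lines did not overlap for 8 of 10 genes with the Myb vector, where 39.9% of all genes had no overlap, and for 10 of 10 with the GFP vector, where 57.4% had none. The cells were measured in bulk, so fewer cells of a type and less RNA per cell cannot be told apart.

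Ccnd1, which encodes cyclin D1, was the member with the widest range. It measured 9.23, 9.11 and 9.14 on the KY-2 Myb arrays and 9.03 and 8.94 on the KY-2 GFP arrays. The KY-1 Myb arrays had 5.54, 5.51, 4.63 and 4.89, and the KY-1 GFP arrays had 5.12, 5.301 and 5.13. Every KY-2 array was thus far above every KY-1 array, and of the KY-1 arrays the 2 highest lay just above the array medians and the others below them. No detection call stands beside these values, so the folds are taken against a level not shown to be above background. With the Myb vector Ccnd1 averaged 9.16 ± 0.06 in KY-2 and 5.27 ± 0.44 in KY-1 (SD, n = 3 each), 14.8-fold higher in KY-2 by limma (log2 difference 3.89 ± 0.17 (SE), adjusted p = 1.70e-08). It averaged 8.98 ± 0.06 in KY-2 and 5.17 ± 0.06 in KY-1 with the GFP vector (SD, n = 2 each), 14.05-fold higher in KY-2 (log2 difference 3.81 ± 0.21, adjusted p = 1.47e-07). The SD of 0.44 in KY-1 Myb cells comes from arrays 3 and 4, which lay below arrays 1 and 2.

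Ccnd2 encodes cyclin D2, the D cyclin that cytokine signals raise in lymphocytes. Its level was 11.03, 11.03 and 11.04 on the KY-2 Myb arrays, with 11.11 and 11.03 on the KY-2 GFP arrays. KY-1 Myb arrays had 11.36, 11.33, 11.25 and 11.23, and KY-1 GFP arrays had 11.24, 11.29 and 11.35. The KY-2 arrays were all below the KY-1 arrays, by a small margin. With the Myb vector the difference was −0.27 ± 0.07 (SE), 1.21-fold lower in KY-2 (adjusted p = 0.0102). The difference of −0.24 with the GFP vector was not called (adjusted p = 0.0539, 95% interval −0.43 to −0.05).

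Ccnd3, for cyclin D3, ran opposite to Ccnd1. KY-2 Myb arrays had 9.46, 9.35 and 9.51, and KY-2 GFP arrays had 9.37 and 9.11. KY-1 Myb arrays had 10.34, 10.14, 10.09 and 10.10, and KY-1 GFP arrays had 10.13, 10.14 and 10.54. All KY-2 arrays were below all KY-1 arrays, and KY-1 GFP array 3 stood above the other KY-1 arrays. Ccnd3 was 1.68-fold lower in KY-2 with the Myb vector (log2 difference −0.75 ± 0.12, adjusted p = 4.48e-04) and 2.14-fold lower with the GFP vector (−1.10 ± 0.14, adjusted p = 1.49e-04). The D cyclins therefore differed between the lines in opposite directions, with Ccnd1 higher and Ccnd3 lower in KY-2.

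Among the E cyclins, Ccne1 (cyclin E1) was the flattest of the 10 genes over the 4 groups, whose means spanned 0.16. It measured 8.20, 8.36 and 8.33 on the KY-2 Myb arrays, 8.15 and 8.13 on the KY-2 GFP arrays, 8.25, 8.25, 8.24 and 8.31 on the KY-1 Myb arrays, and 8.25, 8.26 and 8.21 on the KY-1 GFP arrays. The difference between KY-2 and KY-1 was 0.04 with the Myb vector (adjusted p = 0.739, 95% interval −0.11 to 0.19) and −0.10 with the GFP vector (adjusted p = 0.465, 95% interval −0.28 to 0.09).

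Ccne2 (cyclin E2) had 8.30, 8.63 and 8.46 on the KY-2 Myb arrays and 8.47 and 8.46 on the KY-2 GFP arrays. The KY-1 Myb arrays had 8.82, 8.59, 9.02 and 8.95, and the KY-1 GFP arrays had 9.02, 8.99 and 8.79. With the Myb vector KY-2 array 2 lay above KY-1 array 2, and the difference of −0.33 ± 0.12 stood at the threshold (adjusted p = 0.0499782). The lines did not overlap with the GFP vector, and Ccne2 was lower in KY-2 by 1.35-fold (−0.43 ± 0.14, adjusted p = 0.0412). The call with the Myb vector was lost in 12 of the other settings (adjusted p up to 0.183) and the call with the GFP vector in 6 (adjusted p up to 0.231, the highest without KY-1 GFP replicate 1).

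The kinases differed between the lines in the same direction. Cdk4 had 11.64, 11.70 and 11.71 on the KY-2 Myb arrays and 11.67 and 11.64 on the KY-2 GFP arrays, against 11.38, 11.29, 11.32 and 11.32 on the KY-1 Myb arrays and 11.18, 11.18 and 11.16 on the KY-1 GFP arrays. Every KY-2 array was above every KY-1 array. Cdk4 was higher in KY-2 by 1.28-fold with the Myb vector (0.35 ± 0.07, adjusted p = 0.00145) and 1.40-fold with the GFP vector (0.49 ± 0.08, adjusted p = 7.66e-04).

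Cdk6, the other partner of the D cyclins, had 10.53, 10.50 and 10.55 on the KY-2 Myb arrays and 10.54 and 10.47 on the KY-2 GFP arrays. KY-1 Myb arrays had 10.10, 10.28, 10.14 and 10.18, and KY-1 GFP arrays had 10.14, 10.12 and 10.11. The lines were again apart on every array. Cdk6 was higher in KY-2 by 1.27-fold with the Myb vector (0.35 ± 0.07, adjusted p = 0.00302) and 1.31-fold with the GFP vector (0.39 ± 0.09, adjusted p = 0.00594). Without KY-2 GFP replicate 1, the call with the GFP vector was lost (adjusted p = 0.0514).

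Of the inhibitors, Cdkn1b was read by 2 probe sets. The brighter had 9.97, 9.97 and 9.98 on the KY-2 Myb arrays and 9.89 and 9.82 on the KY-2 GFP arrays. On the KY-1 Myb arrays it had 10.42, 10.14, 10.46 and 10.48, and on the KY-1 GFP arrays 10.56, 10.52 and 10.34. All KY-2 arrays were lower. Cdkn1b was 1.29-fold lower in KY-2 with the Myb vector (−0.37 ± 0.09, adjusted p = 0.0105) and 1.502-fold lower with the GFP vector (−0.59 ± 0.12, adjusted p = 0.00264). The other Cdkn1b probe set gave −0.60 with the Myb vector and −0.77 with the GFP vector, the same direction.

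Cdkn2a encodes 2 unrelated proteins from different first exons, the INK4 protein p16 and the p53 regulator ARF, and which transcript the probe set reads is not given in the sources used here. It measured 9.27, 9.24 and 9.44 on the KY-2 Myb arrays and 9.72 and 9.58 on the KY-2 GFP arrays. It measured 8.60, 8.79, 8.70 and 8.76 on the KY-1 Myb arrays and 8.70, 8.70 and 8.83 on the KY-1 GFP arrays. The KY-2 arrays were all above the KY-1 arrays, and within KY-2 the GFP arrays were above the Myb arrays. Cdkn2a was higher in KY-2 by 1.52-fold with the Myb vector (0.61 ± 0.09, adjusted p = 2.27e-04) and 1.85-fold with the GFP vector (0.89 ± 0.11, adjusted p = 7.55e-05).

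Cdkn2c, which encodes the INK4 protein p18, had 9.39, 9.68 and 9.39 on the KY-2 Myb arrays and 9.79 and 9.68 on the KY-2 GFP arrays. The KY-1 Myb arrays had 8.89, 8.87, 8.93 and 9.02, and the KY-1 GFP arrays had 9.24, 9.34 and 9.25. All KY-2 arrays were above all KY-1 arrays, and in KY-1 the Myb arrays were all below the GFP arrays. Cdkn2c was 1.49-fold higher in KY-2 with the Myb vector (0.58 ± 0.09, adjusted p = 4.64e-04) and 1.39-fold higher with the GFP vector (0.47 ± 0.11, adjusted p = 0.00764). The call with the GFP vector was lost without KY-2 GFP replicate 1 (adjusted p = 0.0638).

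**Figure D1:**
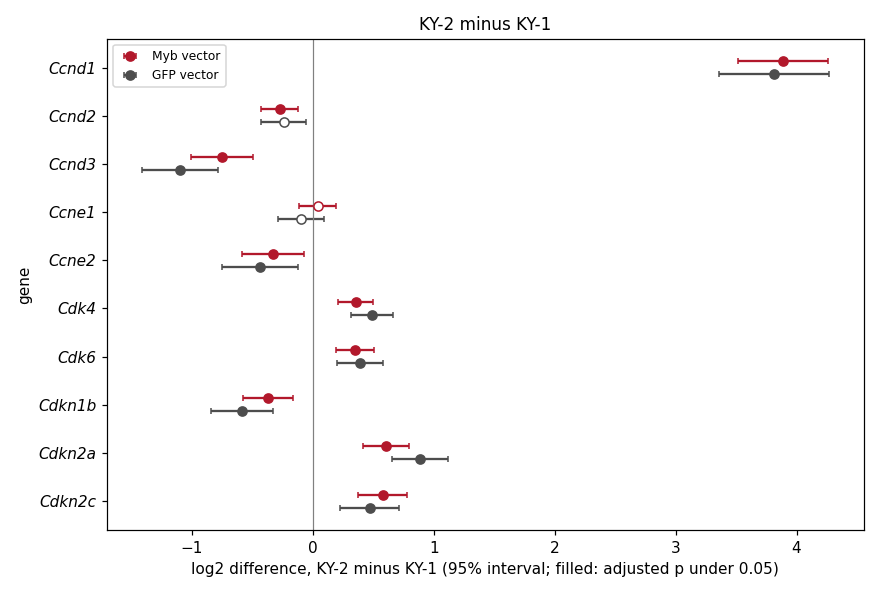
Difference in log2 level, KY-2 minus KY-1 (horizontal axis), of each G1 gene with the Myb vector and with the GFP vector, with 95% intervals from limma; filled points have an adjusted p under 0.05. Ccnd1 lies at 3.89 and 3.81, Ccnd3 at −0.75 and −1.10, and Ccne1 at 0.04 and −0.10 with open points.

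Over the 4 groups, Ccnd1, Cdk4 and Cdk6 had the same order of means, with KY-2 Myb at the top, then KY-2 GFP, KY-1 Myb and KY-1 GFP. Cdkn2a and Cdkn2c both had KY-2 GFP at the top, then KY-2 Myb, KY-1 GFP and KY-1 Myb. Ccnd2 and Ccne2 were highest in KY-1 GFP, then KY-1 Myb, KY-2 GFP and KY-2 Myb, and Ccnd3 and Cdkn1b shared that order with the KY-2 groups exchanged. Ccne1 was highest in KY-2 Myb and lowest in KY-2 GFP cells. In none of the 10 genes did neighbours of the same line pass the test, so the order within a line is not settled.

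Between Myb and GFP cells, only 1 of these genes passed the test in any contrast. In KY-2, 0 of the 10 passed the limma test between Myb and GFP cells, where 2.83% of all genes did and 4.39% of those with a mean above 6, and 2 had an unadjusted p under 0.05, where 13.2% of all genes had. In KY-1, 0 of the 10 passed, where 1.22% of all genes did and 1.96% of those with a mean above 6, and again 2 had an unadjusted p under 0.05, where 11% of all genes had. The differences ranged from −0.33 to 0.20 in KY-2 and from −0.36 to 0.16 in KY-1. Their median was 0.02 in KY-2 and −0.03 in KY-1, and over all genes 0.01 in KY-2 and −0.0013 in KY-1.

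With the lines averaged, Cdkn2c was the single member called, where 3.10% of all genes were, 1.58% on the lower side, and 5.07% of those with a mean above 6. It was lower in Myb cells than in GFP cells by 1.23-fold (log2 difference −0.30 ± 0.07 (SE), adjusted p = 0.0461, 95% interval −0.46 to −0.15). In KY-2 Cdkn2c averaged 9.49 ± 0.17 with the Myb vector (SD, n = 3) and 9.74 ± 0.08 with the GFP vector (SD, n = 2), a difference of −0.25 ± 0.10 (SE) with adjusted p = 0.307. KY-2 Myb array 2 overlapped the GFP arrays. In KY-1 it averaged 8.91 ± 0.06 with the Myb vector (SD, n = 3) and 9.27 ± 0.03 with the GFP vector (SD, n = 2), a difference of −0.36 ± 0.10 (SE) with adjusted p = 0.166. The averaged difference stayed between −0.35 and −0.28 in all other settings, but its adjusted p ran from 0.00293 to 0.206, and leaving out any replicate other than KY-2 Myb replicate 2 ended the call. Median centring also ended it, and so did a block, chosen after the data were seen, for 2 sets of KY-1 arrays, Myb 3 and 4 with GFP 1 and 2, and Myb 1 and 2 with GFP 3 (adjusted p = 0.0675). Deviations from the group means correlated at 0.31 to 0.33 between Myb and GFP arrays of the first set, and at 0.13 and 0.37 in the second. Deviations within a group are tied by their mean, and the sets were drawn from these same arrays. The correlations therefore cannot decide whether the sets are real, and the Cdkn2c call is not settled.

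Cdkn2a was the other inhibitor at the low end. In KY-2 it averaged 9.32 ± 0.10 with the Myb vector (SD, n = 3) and 9.65 ± 0.10 with the GFP vector (SD, n = 2), and the arrays did not overlap. The difference of −0.33 ± 0.10 (SE) was not called (adjusted p = 0.124). It was called only when dim genes were left out (adjusted p = 0.0344) or when the variance was allowed to follow intensity (adjusted p = 0.0187). In KY-1 the difference was −0.05, with a 95% interval of −0.27 to 0.16.

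The arrays of Myb and GFP cells did not overlap for 4 of 10 genes in KY-2, where 31.0% of all genes had no overlap, and for 2 of 10 in KY-1, where 19.0% had none. In KY-2 these were Ccnd1, Ccne1 and Cdkn1b, on the higher side, and Cdkn2a, on the lower. In KY-1 they were Cdk4, whose Myb arrays gave a difference of 0.16 ± 0.07 (adjusted p = 0.452), and Cdkn2c. Both counts are near the share over all genes.

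The 95% intervals of the difference averaged over the lines, which do not bound the effect in a single line, were −0.14 to 0.10 for Ccnd2, −0.08 to 0.17 for Cdk6, −0.02 to 0.21 for Cdk4 and −0.03 to 0.21 for Ccne1. They were wider for Ccnd3, at −0.18 to 0.23 (−0.09 to 0.49 in KY-2 and −0.44 to 0.14 in KY-1), for Ccne2, at −0.25 to 0.15, and for Ccnd1, at −0.15 to 0.44 (−0.24 to 0.60 in KY-2 and −0.31 to 0.52 in KY-1). Cdkn1b had −0.16 to 0.17. The averaged interval of Cdkn2a, −0.34 to −0.04, did not include 0, though its difference of −0.19 was not called by limma (adjusted p = 0.212). Ccnd1 was called, at 0.27 with adjusted p = 0.047, only when KY-1 Myb replicate 3 was left out. Within the KY-1 arrays, Ccnd1 in Myb minus GFP cells was −0.45 over the closely similar pairs and 0.40 over the other arrays, whereas Cdkn2c was −0.31 and −0.37. The Myb effect of no member passed the limma test of a difference between KY-2 and KY-1 (0 of 10 called, where 0.843% of all genes were, and 0 at an unadjusted p under 0.05), and the smallest adjusted p was 0.529, for Cdkn2a.

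**Figure D2:**
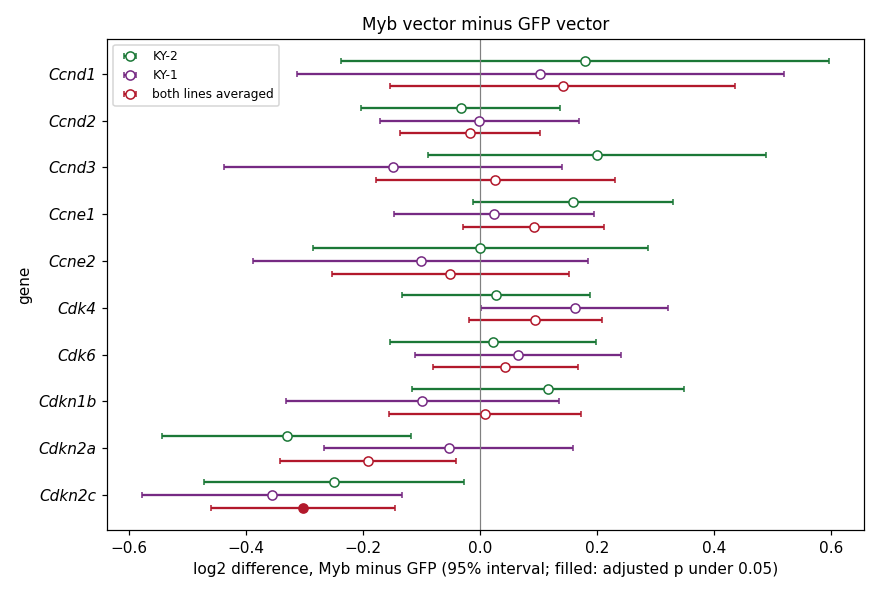
Difference in log2 level, Myb minus GFP (horizontal axis), of each G1 gene in KY-2, in KY-1 and averaged over both lines, with 95% intervals from limma; filled points have an adjusted p under 0.05. The averaged Cdkn2c value of −0.30 is the single filled point, and most intervals of the cyclins and kinases cross 0.

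Cdkn2c was the member called between Myb and GFP cells, so its start site windows are printed, each holding the 300 bases around a RefSeq start, most of them upstream, on build GRCm38.p6. Both lie on the minus strand of chr4, at chr4:109666707-109667006 and chr4:109665323-109665622, and are given 5′ to 3′ in the direction of the gene. Capitals mark matches to the Myb motif TAACNG or CAACNG on either strand.
Cdkn2c start 1: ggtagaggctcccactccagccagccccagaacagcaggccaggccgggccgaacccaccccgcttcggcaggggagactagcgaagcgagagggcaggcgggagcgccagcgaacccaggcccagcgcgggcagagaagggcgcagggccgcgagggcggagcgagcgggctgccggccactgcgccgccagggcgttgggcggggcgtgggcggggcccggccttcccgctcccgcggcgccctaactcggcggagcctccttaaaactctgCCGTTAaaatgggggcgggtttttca
Cdkn2c start 2: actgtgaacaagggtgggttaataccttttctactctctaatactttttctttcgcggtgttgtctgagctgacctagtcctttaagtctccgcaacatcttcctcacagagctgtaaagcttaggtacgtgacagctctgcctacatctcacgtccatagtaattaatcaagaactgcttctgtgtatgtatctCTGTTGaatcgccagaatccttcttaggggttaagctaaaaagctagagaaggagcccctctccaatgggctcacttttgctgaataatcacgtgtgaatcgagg
Each window holds 1 match. The same motif is found in 49.7% of all 32851 promoter windows of this length, so a match is common. Promoter windows were matched for 7 of the 10 genes, 10 windows in all, and the windows of Cdk4 and the second start of Ccnd3 also hold 1 match each. The E2F motif TTTCGCGC or TTTGGCGC, searched on both strands, is in 0.813% of all windows and in 0 of these 10. With so low a share, finding 0 in 10 windows says little about these genes. Ccnd1, Ccnd2 and Ccne2 had no window.

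Of the 13 retinoblastoma and E2F factors, 5 were lower in KY-2 and 2 higher with the Myb vector, where 16.9% of all genes were lower and 14.7% higher. With the GFP vector 8 were lower and 1 was higher, where 15.2% of all genes were lower and 13.6% higher. Of genes with a mean above 6, 53.1% were called with the Myb vector and 47.5% with the GFP vector. Their median difference was −0.13 with the Myb vector and −0.35 with the GFP vector, and the median over all genes was −0.01 with the Myb vector and −0.04 with the GFP vector. E2f8, a repressor of late S phase, averaged 8.55 in KY-2 and 9.39 in KY-1 with the GFP vector, 1.79-fold lower in KY-2 (adjusted p = 2.25e-05). Rbl1, the retinoblastoma relative p107, was 1.74-fold lower (adjusted p = 8.96e-05) and E2f1, the activating factor, 1.46-fold lower (adjusted p = 3.45e-04). The exception was E2f6, a repressor that does not bind retinoblastoma proteins, which was 1.97-fold higher in KY-2 (adjusted p = 1.85e-04).

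E2F target genes, which make the replication machinery and its nucleotides, had 9 of 19 lower and 4 higher in KY-2 with the Myb vector, and 10 lower and 4 higher with the GFP vector. Their median difference was −0.15 with the Myb vector and −0.37 with the GFP vector, to be read against the same medians and shares over all genes. The shares among genes with a mean above 6 are again 53.1% with the Myb vector and 47.5% with the GFP vector. Cdc6, the loader of the replicative helicase, was 1.74-fold lower in KY-2 with the GFP vector (adjusted p = 1.17e-04), Tyms, thymidylate synthase, 1.64-fold lower (adjusted p = 9.06e-05) and Rpa2, of the single-strand binding complex, 1.59-fold lower (adjusted p = 1.40e-04). Rrm2, the small subunit of ribonucleotide reductase, went the other way, at 11.80 in KY-2 and 10.93 in KY-1, 1.83-fold higher in KY-2 (adjusted p = 9.28e-06). Between Myb and GFP cells 0 of 19 were called in either line by limma, with 5 in KY-2 and 1 in KY-1 at an unadjusted p under 0.05 (13.2% of all genes in KY-2 and 11% in KY-1).

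Of the 4 CDK inhibitors tested beside the 3 members, 1 was lower in KY-2 with either vector and none was higher, near the share over all genes (31.6% with the Myb vector and 28.9% with the GFP vector). Their median difference was 0.01 with the Myb vector and 0.10 with the GFP vector. Cdkn3, a phosphatase that acts on Cdk2, was lower in KY-2 by 1.21-fold with the GFP vector (adjusted p = 0.0324), a call that leaving out any 1 of the GFP replicates ended (adjusted p up to 0.16). Cdkn2b, the INK4 gene next to Cdkn2a, averaged 9.24 in KY-2 and 9.03 in KY-1 with the GFP vector, a difference of 0.20 that was not called (adjusted p = 0.0952). Cdkn2d, for the INK4 protein p19, gave 0.01 (adjusted p = 0.967) and Cdkn1c, for p57, gave 0.26 (adjusted p = 0.266). Cdkn1a was not tested here.

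Genes beside Cdkn2a on its chromosome were read to see whether its difference extended to them. Of the 4 tested, 2 were lower in KY-2 with the Myb vector (median −0.18) and 1 with the GFP vector (median −4.84e-05), and none was higher. Of all genes, 16.9% were lower with the Myb vector and 15.2% with the GFP vector, so with 4 genes these counts say little about the locus. Dmrta1 was 2.64-fold lower in KY-2 with the GFP vector (6.59 in KY-2 and 7.99 in KY-1, adjusted p = 1.33e-05). It was 2.20-fold lower with the Myb vector (adjusted p = 1.12e-05). Mtap, an enzyme of methionine salvage, gave −0.03 with the GFP vector (adjusted p = 0.845). With the Myb vector Mtap was lower in KY-2, at −0.27 (adjusted p = 0.0245). That call was lost when some single Myb replicates were left out (adjusted p up to 0.0855). Mllt3 gave 0.03 with the GFP vector (adjusted p = 0.802) and 0.009 with the Myb vector (adjusted p = 0.941). Cdkn2b, the fourth, gave 0.20 with the GFP vector, with arrays that did not overlap. It was called higher in KY-2 with that vector in 4 of the other settings. With the Myb vector Cdkn2b gave −0.09 (adjusted p = 0.355), and the arrays of the lines overlapped. Between Myb and GFP cells of KY-2, Cdkn2b averaged 8.97 with the Myb vector and 9.24 with the GFP vector, a difference of −0.27 ± 0.08 (SE, adjusted p = 0.11) that was called in 3 of the other settings, and the arrays did not overlap.

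Among other kinases and activators of the G1 to S step, 3 of 10 were lower and 2 higher in KY-2 with the Myb vector (median −0.09). With the GFP vector 1 was lower and none higher (median −0.03). Of all genes, 31.6% were called with the Myb vector (median −0.01) and 28.9% with the GFP vector (median −0.04). Among genes with a mean above 6, 53.1% were called with the Myb vector and 47.5% with the GFP vector. Ccna2, the S phase cyclin A2, was lower in KY-2 by 1.18-fold with the Myb vector (adjusted p = 0.0244) and 1.34-fold with the GFP vector (adjusted p = 0.00389). Cdk2, the partner of the E cyclins, was 1.35-fold higher in KY-2 with the Myb vector (adjusted p = 0.00253) and gave 0.27 with the GFP vector (adjusted p = 0.0862). Ccna1, the germ cell cyclin A, averaged 3.82 in KY-2 and 3.51 in KY-1 with the Myb vector (adjusted p = 0.0354), both below the array medians. The Ccna2 and Ccna1 calls with the Myb vector were lost when single replicates were left out (adjusted p up to 0.087 and 0.133). Cdk7, of the CDK-activating kinase, was 1.30-fold lower in KY-2 with the Myb vector (adjusted p = 0.0148), a direction that turned to 0.019 when its probe sets were averaged.

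A further 16 tested genes carry out or regulate the turnover of the cyclins and p27 by ubiquitination. With the Myb vector 3 of these were higher and 2 lower in KY-2 (median 0.12), and with the GFP vector 5 were higher and 4 lower (median 0.14). Over all genes 31.6% were called with the Myb vector (14.7% higher and 16.9% lower), and 28.9% with the GFP vector (13.6% higher and 15.2% lower). Of genes with a mean above 6, the shares called were 53.1% with the Myb vector and 47.5% with the GFP vector. Ddb1, the adaptor of CUL4 ligases, was 1.52-fold higher in KY-2 with the GFP vector (adjusted p = 6.04e-04), and Fbxw7, the receptor that marks cyclin E, was 1.38-fold higher (adjusted p = 0.00964). Fbxo4, a receptor reported to mark cyclin D1, was 1.36-fold lower (adjusted p = 0.0356) and Rbx1, the RING subunit of cullin ligases, 1.24-fold lower (adjusted p = 0.0241). The Rbx1 call was lost without any 1 of the 4 GFP replicates (difference −0.32 to −0.20 over the settings). It was also lost when its probe sets were averaged and under median centring. The Fbxo4 call was lost without KY-1 GFP replicate 1 or either KY-2 GFP replicate (−0.60 to −0.29). A second quantile normalization and median centring ended it too. The Fbxw7 call was lost without KY-1 GFP replicate 3 or KY-2 GFP replicate 2 (0.33 to 0.54).

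The upstream regulators held the widest differences outside Ccnd1. With either vector 4 of 17 were higher and 8 lower in KY-2, with medians of −0.16 for the Myb vector and −0.25 for the GFP vector. Of all genes, 14.7% were higher and 16.9% lower with the Myb vector, and 13.6% higher and 15.2% lower with the GFP vector. Among genes with a mean above 6, 53.1% were called with the Myb vector and 47.5% with the GFP vector. The 17 include Myb, the gene that the vector carries, which was lower in KY-2 with the GFP vector and not called with the Myb vector. The MYC factors, which drive cell growth and cell cycle entry, differed in opposite directions. Mycn averaged 8.99 in KY-2 and 6.89 in KY-1 with the GFP vector, 4.29-fold higher in KY-2 (adjusted p = 2.56e-08). Myc averaged 10.13 in KY-2 and 11.60 in KY-1, 2.76-fold lower in KY-2 (adjusted p = 2.40e-07). Runx1, a transcription factor of blood cells, averaged 5.22 in KY-2 and 7.48 in KY-1 with the GFP vector and was lower in KY-2 (adjusted p = 7.72e-06), with a KY-2 level below the array medians and so no fold given.

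**Figure D3:**
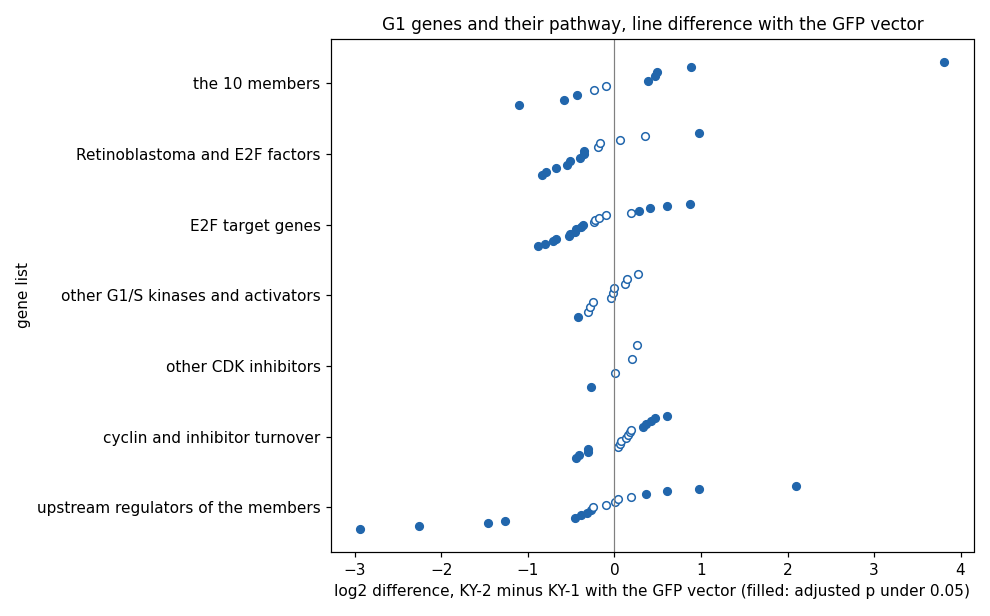
Difference in log2 level, in cells with the GFP vector, KY-2 minus KY-1 (horizontal axis), for the 10 G1 genes and the genes of 6 pathway lists (rows). Each point is a gene, filled where its adjusted p from limma is under 0.05; most called E2F factors and E2F targets lie below 0, and the upstream regulators run from −2.94 for Myb to 2.10 for Mycn.

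Of the 24 reported miR-15/16 targets measured, 6 of the G1 genes and Myb among them, 8 were higher in KY-2 and 3 lower with the Myb vector (median 0.12), and 10 were higher and 3 lower with the GFP vector (median 0.04). These counts repeat in part the calls given above. With either vector they include Ccnd1, Cdk4 and Cdk6 as higher and Ccnd3 as lower. They also include Ccnd2 as lower with the Myb vector and Myb as lower with the GFP vector. Over all genes 31.6% were called with the Myb vector and 28.9% with the GFP vector, and among genes with a mean above 6 the shares were 53.1% with the Myb vector and 47.5% with the GFP vector. Beside Ccnd1, Vegfa, the vascular growth factor, was 1.55-fold higher in KY-2 with the GFP vector (adjusted p = 0.00573, and 0.0584 without KY-2 GFP replicate 2), and Pdcd4, an inhibitor of translation, 1.81-fold higher (adjusted p = 2.43e-05). Between Myb and GFP cells 1 target was higher in each line, Myb itself, which the vector carries, so its call reads the vector. The 1 lower in each line was Pdcd4, where 2.83% of all genes were called in KY-2 and 1.22% in KY-1. Pdcd4 averaged 9.92 in Myb and 10.68 in GFP cells of KY-2, 1.69-fold lower with Myb (adjusted p = 3.66e-04). In KY-1 it averaged 9.25 in Myb and 9.82 in GFP cells, 1.49-fold lower (adjusted p = 0.00625). That KY-1 call was lost without either KY-1 GFP replicate, and also when only the arrays compared were used. The KY-1 difference ran from −0.625 to −0.527 over the settings. The 6 G1 genes of this list were not called in either line.

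Apart from Myb and Pdcd4, 2 genes of these lists were called between Myb and GFP cells within a line, and they are named here after their values were seen. Tfdp2, the dimer partner of E2F factors, averaged 7.16 in Myb and 7.59 in GFP cells of KY-1, a difference of −0.44 ± 0.08 (SE, adjusted p = 0.0339), and −0.07 in KY-2 (adjusted p = 0.806). Gata3, a T cell and innate lymphoid factor, averaged 6.25 in Myb and 5.46 in GFP cells of KY-2, a difference of 0.79 ± 0.14 (SE, adjusted p = 0.00978), and it averaged 6.72 in both KY-1 groups. The Tfdp2 call was lost in 12 of the other settings, with adjusted p up to 0.299. The Gata3 call was lost without either KY-2 GFP replicate, and also when only the arrays compared were used. Its difference ran from 0.65 to 0.94 over the settings. Neither effect passed the test of a difference between the lines (adjusted p = 0.283 for Tfdp2 and 0.113 for Gata3).

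Genes with the most similar profiles were sought for the 2 members whose group means spanned at least 1 log2 unit. Likeness was the root mean square difference between profiles over the 10 replicates, each profile centred on its own mean. Nearest to Ccnd1 were Cabcoco1 (0.218), Ncoa1 (0.250) and Nefh (0.262). Nearest to Ccnd3 were Parvg (0.0913), Rab27a (0.0990) and Myo1f (0.110). Ncoa1 averaged 8.89 in KY-2 Myb and 9.02 in KY-2 GFP cells, against 4.87 in KY-1 Myb and 4.92 in KY-1 GFP cells. Parvg averaged 8.31 in KY-2 Myb and 8.07 in KY-2 GFP cells, against 9.13 in both KY-1 groups. These profiles follow the lines, and the 10 replicates share only those 2 lines.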

How the data were processed

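Total RNA from sorted cells was hybridised to 12 single-colour Affymetrix arrays. As deposited, the values are on the log2 scale, 1 per array for each of 35556 probe sets, and the submitters' processing notes name Partek and RMA. RMA is a method that removes background, brings arrays to a common scale and combines the probes of a set; its version and options were not given in the sources used here. No detection calls came with the values, so a low level has no measured background beside it; precision is limited by how many arrays there are.

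Of the probe sets, 21789 had 1 gene symbol, 1621 had several and 12146 were not listed with one. Where several probe sets read a gene (999 genes), the brightest was used, and 19938 genes were tested with no filter on dim signal. Arrays within a group were compared over 10624 probe sets with a mean above 7. Pairs whose robust SD was under 0.5 times the median of all pairs within a group were averaged, which left 10 replicates.

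Genes were tested in limma 3.58.1 (R 4.3.3) by 1 model of 4 group means (lmFit, contrasts.fit, eBayes; 6 residual and 4.89 prior degrees of freedom), Benjamini-Hochberg adjustment over all 19938 genes and a threshold of 0.05. The procedure was tested on simulated data. The contrasts within a line share their arrays with the contrasts between lines. Fold changes, p-values and 95% intervals are from this model, and errors named SD are over replicates. Up to 4 genes of each list, those with the smallest p in any contrast, were named. The members, lists and tests were chosen with earlier results of these data known. The alternatives treated all 12 arrays as separate, filtered at a mean above 6, normalized by quantiles again, centred medians, averaged probe sets, let the variance follow intensity, blocked on replicate number, used only the arrays compared, or left out each replicate. Between Myb and GFP arrays of the same line, same-numbered arrays correlated at −0.37 to 0.05 in their deviations from the group means. Differently numbered ones correlated at −0.36 to 0.37, so pairing by number was not seen. Deviations within a group are tied to each other by their mean, above all for the 2 KY-2 GFP arrays, so these values cannot exclude such pairing. Pairs across lines were not checked.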

Additional observations from a re-analysis of the deposited data

How the results depend on the processing

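Of 1120 differences of the 10 G1 genes recomputed under other settings, 1078 kept their side of the threshold, 31 lost a call and 11 gained one; no called difference changed sign, and 39 uncalled ones did. Leaving out a GFP replicate leaves 1 sample in its group, which is then assumed to vary like the others. With the Myb vector, 8 to 9 of the 10 genes were called between KY-2 and KY-1 when replicates were left out, against 9 in the reported model; with the GFP vector 5 to 8 were called, the 5 without KY-2 GFP replicate 1, against 8. Between Myb and GFP cells of KY-1, 1 gene was called in place of 0 with all 12 arrays as separate replicates, with genes of a mean above 6 only, and with the intensity trend (Cdkn2c each time). In KY-2, 1 was called in place of 0 with the filter and with the trend (Cdkn2a). With the lines averaged, 0 were called in place of 1 under median centring and with a block for the 2 sets of KY-1 arrays, which was added after the data were seen, and 0 to 1 when replicates were left out. The Cdk7 difference between the lines with the Myb vector was −0.38, and 0.019 with its probe sets averaged. With the replicate number as a block, on all 12 arrays, 8 of the 10 were called between the lines with either vector, 0 in each Myb contrast within a line, and 1 (Cdkn2c) averaged. Over all genes, the KY-1 Myb contrast called 244, with 106 to 823 under other settings and 72 to 227 when replicates were left out. The KY-2 contrast called 565, with 346 to 888 and 182 to 556, and the averaged one 619, with 558 to 1143 and 314 to 505. The difference of the Myb effects called 168, with 152 to 427 and 88 to 142. The cause of these shifts was not tested.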
